A study of Mus musculus with 42 samples.

Results

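The Tas2r genes encode the bitter taste receptors of the mouse, and they were followed here through sorted thymic epithelial cells (TEC) with and without the corepressor gene Ski. Members were all genes in the count table whose Ensembl identifier maps to a symbol made of Tas2r and a number. This gave 35 members among 53465 genes. All 35 are protein-coding genes with 1 exon of 882 to 1158 bases, and 0 of them overlap another annotated gene.

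A bitter receptor is a G protein-coupled receptor that binds bitter compounds at the cell surface. In taste cells it signals through gustducin, whose alpha subunit is encoded by Gnat3, then through the phospholipase Plcb2, the calcium release channel Itpr3 and the cation channel Trpm5. The same chain operates in tuft cells, chemosensory epithelial cells of the gut, airways and thymic medulla whose formation depends on the POU-domain factor Pou2f3. Medullary TEC (mTEC) also transcribe many genes of other tissues, in part under the regulator Aire, and so display peripheral proteins to developing T cells.

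RNA-seq counts were available for 42 libraries, each made from 200 sorted mouse cells, in 3 subsets. MHCII-low mTEC were sorted as Epcam+ CD45- UEA+ Ly51lo MHCIIlo cells, MHCII-high mTEC by the same markers with MHCIIhi, and cortical TEC (cTEC) as Epcam+ CD45- UEA- Ly51+ cells. Each subset had 7 libraries labelled KO, 5 labelled Control and 2 labelled Ski flox Control, where KO stands for a deletion of Ski limited to TEC. The labels used here give neither the Cre driver nor the age or the number of animals, and they tie no library to an animal, so each p-value below measures the spread between libraries, which may be technical.

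The octamer ATGCAAAT, read on the other strand as ATTTGCAT, is a sequence that POU-domain factors can bind. It was searched on both strands of windows from 250 bases before to 50 bases after each RefSeq gene start (GRCm38.p6). Of the 31 members with a window, 7 held it, which is 22.6%. Among all 32851 gene windows 570 held it, which is 1.74%. The shares were 2.65% in olfactory receptor windows (25 of 944) and 3.42% in vomeronasal receptor windows (11 of 322). These are the 7 matches, of a motif that was itself chosen after these windows and the expression values had been seen. Each is written along its gene's own strand, with the octamer in capitals and up to 20 flanking bases on each side.
Tas2r108: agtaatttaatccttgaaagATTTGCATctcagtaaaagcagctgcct
Tas2r118: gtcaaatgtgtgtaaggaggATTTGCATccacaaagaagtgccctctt
Tas2r137: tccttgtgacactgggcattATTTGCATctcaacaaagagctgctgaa
Tas2r126: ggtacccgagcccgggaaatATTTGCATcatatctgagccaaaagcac
Tas2r135: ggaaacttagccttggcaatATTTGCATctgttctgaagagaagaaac
Tas2r144: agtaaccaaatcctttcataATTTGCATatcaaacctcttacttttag
Tas2r107: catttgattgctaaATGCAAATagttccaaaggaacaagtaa

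The first of these lies at chr6:40493426-40493473 on the plus strand, with its octamer starting 146 bases before the RefSeq start of Tas2r108. Distances are counted from RefSeq starts, which for some members differ from the GENCODE gene coordinates given further on. The match of Tas2r118 lies at chr6:23970157-23970204 (minus strand), 124 bases before the gene start. That of Tas2r137 lies at chr6:40491026-40491073 (plus strand, 192 bases). The matches of Tas2r126 at chr6:42434321-42434368, of Tas2r135 at chr6:42405366-42405413 and of Tas2r144 at chr6:42215151-42215198 are on the plus strand, 194, 143 and 157 bases before the gene starts. The match of Tas2r107 at chr6:131660358-131660399 (minus strand, 236 bases) is the only one of the 7 in the opposite orientation. All 7 stand upstream of the RefSeq gene start, and 6 of them read ATTTGCAT along the gene. The shorter 7-letter core ATGCAAA, which every octamer match also contains, was in 12 of the 31 member windows (38.7%) against 1520 of all 32851 windows (4.63%). A match is a description of letters in a window and shows no binding. The motif was chosen after these windows and the expression values had been seen, so the shares carry no test. Tas2r105, the member with the most counts, had no octamer in its window. Windows were not available in the table used for Tas2r116, Tas2r117, Tas2r121 and Tas2r136.

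Depth and sorting were checked before the members were compared. A Control library of MHCII-low mTEC (replicate 2, 82 counts) and a Control library of MHCII-high mTEC (replicate 2, 41828 counts) fell under the minimum of 100000 counts and were left out, with 0 family counts in both. The 40 libraries used held 3217251 to 7068077 counts. CPM are counts scaled to the library total after its adjustment by TMM normalization factors. A count of 0 in a whole group allows up to 0.0861 CPM in the 7 KO libraries of MHCII-low mTEC. In the Ski flox Control group of that subset it allows up to 0.336 CPM. These limits, set at 3 counts over a group, cover counting error only, since the libraries carry no molecular identifiers. By library number, 19 of these libraries form an early set and the other 21 a late set. KO replicates 1 to 4 and Control replicates 1 to 3 are early, and all Ski flox Control libraries are late. No label names these sets.

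Some libraries stood apart from their labels. In KO replicates 3 and 4 of MHCII-low mTEC, Aire, the regulator that marks mature MHCII-high mTEC, was at 510 and 362 CPM, against 4.06 to 207 CPM in the other MHCII-low libraries and 279 to 1411 CPM in MHCII-high libraries. In KO replicate 5 of cTEC, Psmb11, the thymoproteasome subunit that defines cTEC, was at 6.51 CPM, against 164 to 1962 CPM in the other cTEC libraries, and Aire was at 120 CPM. In both Ski flox Control libraries of MHCII-low mTEC the epithelial markers Epcam, Foxn1 and Krt8 were low. They summed to 462 and 795 CPM, against 1219 to 4478 CPM in the other MHCII-low libraries. Ski itself spanned 0.523 to 16.9 CPM in KO and 7.83 to 44.5 CPM in Control MHCII-low mTEC. In MHCII-high mTEC it spanned 0 to 16.9 CPM in KO and 8.21 to 23.0 CPM in Control libraries. In cTEC it spanned 0 to 42.2 CPM in KO and 3.36 to 27.2 CPM in Control libraries. The ranges overlap in all 3 subsets, and counts per gene cannot show which exons were deleted, so KO stands throughout for the library labelled KO.

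The bitter receptor family was transcribed in most mTEC libraries and was close to absent in most cTEC libraries. Its summed level overlapped, at 0 to 1230 CPM in mTEC and 0 to 25.0 CPM in cTEC libraries. The epithelial markers Epcam, Foxn1 and Krt8 also differed. In late libraries they summed to 223 to 583 CPM in cTEC and 1219 to 2850 CPM in KO and Control mTEC. In early libraries the ranges overlap (786 to 2858 CPM in cTEC and 1948 to 4478 CPM in mTEC). The part of this in the family difference was not tested. In all, 31505 reads fell on the family over the 40 libraries, and 34 of the 35 members had a read in at least 1 library. Tas2r139 was at 0 everywhere. Tas2r105 (ENSMUSG00000051153, chr6:131686532-131687495, minus strand), a receptor known to respond to cycloheximide, carried 7357 reads, or 23.4% of the family count. Tas2r108 (ENSMUSG00000037140, chr6:40493529-40494541, plus strand), a receptor known to respond to denatonium, followed with 3699 reads, or 11.7%. Next came Tas2r138 with 2307 reads (7.32%), the counterpart of the human receptor for phenylthiocarbamide, and Tas2r118 with 2244 reads (7.12%). Tas2r115 had 1925 reads (6.11%), Tas2r102 had 1863 (5.91%), Tas2r137 had 1239 (3.93%) and Tas2r109 had 1046 (3.32%).

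Per kilobase of exon, the mean level over the 40 libraries was 41.5 CPM for Tas2r105, 19.7 for Tas2r108, 13.7 for Tas2r118 and 12.6 for Tas2r138. The members at the low end had a few reads in a single library or a few. Tas2r122 had 11 reads, all in KO replicate 5 of MHCII-low mTEC, and Tas2r143 had 5 reads, all in KO replicate 1 of cTEC. Tas2r124 and Tas2r125 were found in MHCII-low mTEC only, in 5 and 3 libraries of 13, and Tas2r134 in 7 libraries of MHCII-low mTEC, 0 of MHCII-high mTEC and 2 of cTEC.

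All but a pair of members lie on chromosome 6, and clusters were taken as runs of members less than 500000 bases apart. The largest cluster, 18 genes within chr6:132656953-133055816 (GRCm38), carried 11537 reads, or 36.6% of the family count. The 6 genes within chr6:131629823-131690063, Tas2r105 among them, carried 9032 reads (28.7%), and the 3 genes within chr6:40491233-40613310 (Tas2r108, Tas2r137 and Tas2r138) carried 7245 (23.0%). By contrast, the 5 genes within chr6:42140936-42435464 (Tas2r126, Tas2r135, Tas2r139, Tas2r143 and Tas2r144) carried 1031 reads (3.27%), of which 935 were from Tas2r126. Each cluster had a lower mean in KO than in Control libraries of MHCII-low mTEC. The 18-gene cluster averaged 85.3 CPM in KO, 313 CPM in Control and 22.5 CPM in Ski flox Control libraries of that subset.

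Members resemble each other enough that reads of a few could be split. Over the 595 pairs of members the median identity was 60.3%. The closest pair, Tas2r110 and Tas2r123, had 86.3% identity and an identical run of 120 bases, and Tas2r109 and Tas2r117 had 81.5% and a run of 77 bases. These and Tas2r117 with Tas2r123 were the 3 pairs with an identical run of at least 50 bases. How the authors counted reads that fit more than 1 gene is not given in the sources used here, so the values of Tas2r109, Tas2r110, Tas2r117 and Tas2r123 are uncertain.

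**Figure D1:**
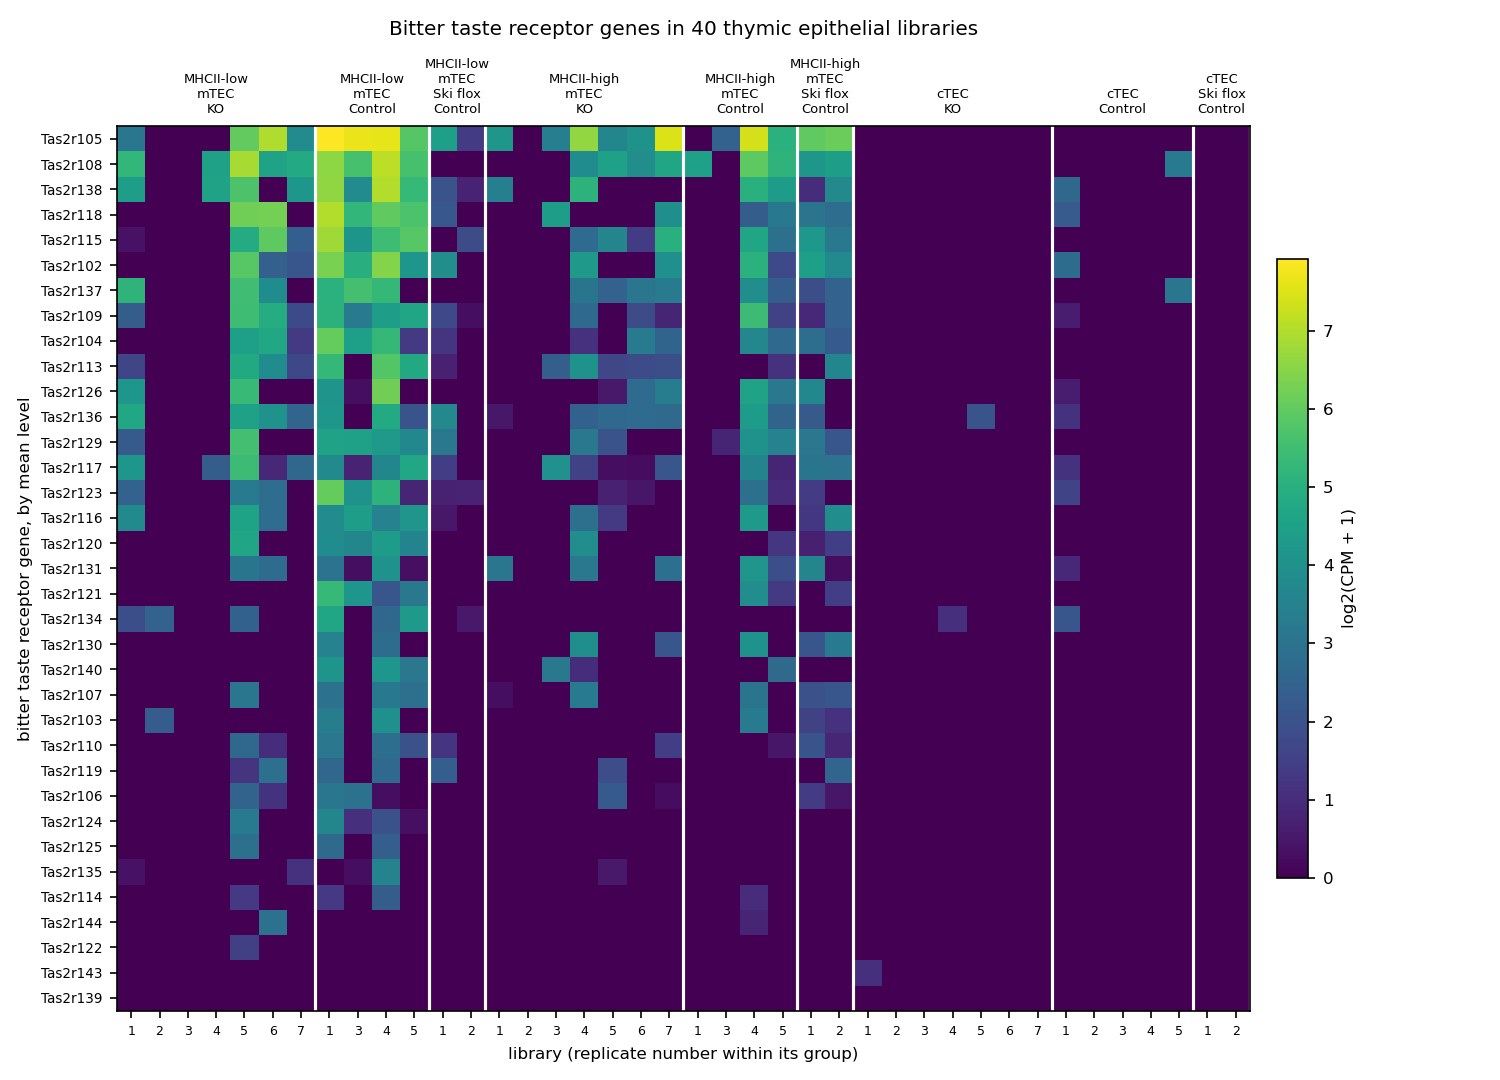
Level of each of the 35 Tas2r members (down the page) in each of the 40 libraries (across), as log2(CPM + 1), grouped by subset and genotype. Tas2r105 was found in 10 of 13 MHCII-low, 11 of 13 MHCII-high and 0 of 14 cTEC libraries, and the cTEC columns are nearly empty outside Control replicates 1 and 5.

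Counted per library, the repertoire in MHCII-low mTEC was on average smaller in KO than in Control libraries, and more so in the early set. It was not smaller in KO than in Ski flox Control libraries (31.0% and 28.6% of the members on average). KO replicates 1 to 7 had reads on 15, 2, 0, 3, 27, 18 and 11 members, against 30, 20, 31 and 22 members in Control replicates 1, 3, 4 and 5. The Ski flox Control libraries, both late, had 14 and 6, below the late KO mean of 18.7. The means were 10.9 ± 9.89 members in KO (SD, n = 7) and 25.8 ± 5.56 in Control libraries (n = 4). The groups overlap in 1 library, KO replicate 5, with 27 members. Early libraries averaged 5 members in KO and 25.0 in Control, and late ones 18.7 in KO and 26.5 in Control. The late difference was −7.83, beside a pooled SD of 8.69 over early and late libraries together, which is not the spread within the late set. Late KO libraries had 11 to 27 members and late Control libraries 31 and 22, so these overlap. After each library was thinned to 3000000 counts, the means were 10.9 and 25.2 members in KO and Control libraries.

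In MHCII-high mTEC, the KO libraries had 5, 0, 5, 18, 14, 11 and 16 members, against 1, 2, 22 and 20 in Control libraries and 22 in each Ski flox Control library. The means were 9.86 ± 6.67 in KO and 11.2 ± 11.3 in Control libraries (SD, n = 7 and 4), and the groups overlap. The Control libraries here split by set, with 1 and 2 members in the early ones and 22 and 20 in the late ones. In cTEC, 3 of 7 KO libraries had 1 member each and the other 4 had 0. Of 5 Control libraries, replicate 1 had 10 members, replicate 5 had 2 and the rest had 0, and both Ski flox Control libraries had 0.

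The summed level of the family followed the number of members. In MHCII-low mTEC it was 190, 8.51, 0, 48.4, 782, 422 and 83.7 CPM in KO replicates 1 to 7, against 1230, 521, 1107 and 435 CPM in Control replicates 1, 3, 4 and 5. The Ski flox Control libraries of that subset had 74.9 and 6.22 CPM, both below the KO mean. The KO mean was 219 ± 288 CPM and the Control mean 824 ± 403 CPM (SD, n = 7 and 4), and 6 of 7 KO libraries lay below every Control library. This ratio of means, −1.91 on the log2 scale, was −3.83 within the early set (61.7 CPM in KO and 876 CPM in Control) and −0.85 within the late set (429 and 771 CPM). The late ratio leaves out the Ski flox Control libraries, which are late and lay at 74.9 and 6.22 CPM. Without KO replicates 3 and 4, whose Aire level was that of MHCII-high mTEC, it was −1.47, and the difference in members found was −11.2 rather than −14.9. In bulk samples, fewer cells of a type and less RNA per cell cannot be told apart.

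In MHCII-high mTEC the summed level was 35.1, 0, 57.2, 265, 70.1, 65.0 and 312 CPM in KO libraries, against 22.2, 5.46, 547 and 153 CPM in Control and 195 and 201 CPM in Ski flox Control libraries. The means, 115 ± 122 CPM in KO and 182 ± 252 CPM in Control (SD, n = 7 and 4), differed by less than the spread within either group. The order of KO and Control turned with the set. Early libraries averaged 89.3 CPM in KO and 13.8 CPM in Control, a log2 ratio of 2.69, and late ones 149 CPM in KO and 350 CPM in Control, a log2 ratio of −1.23. The pooled ratio of −0.66 was 0.93 without Control replicate 4. In cTEC the highest KO library had 3.12 CPM, which was replicate 5 with its low Psmb11. Control replicates 1 and 5 had 25.0 and 16.5 CPM, and the other cTEC Control and Ski flox Control libraries had 0.

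**Figure D2:**
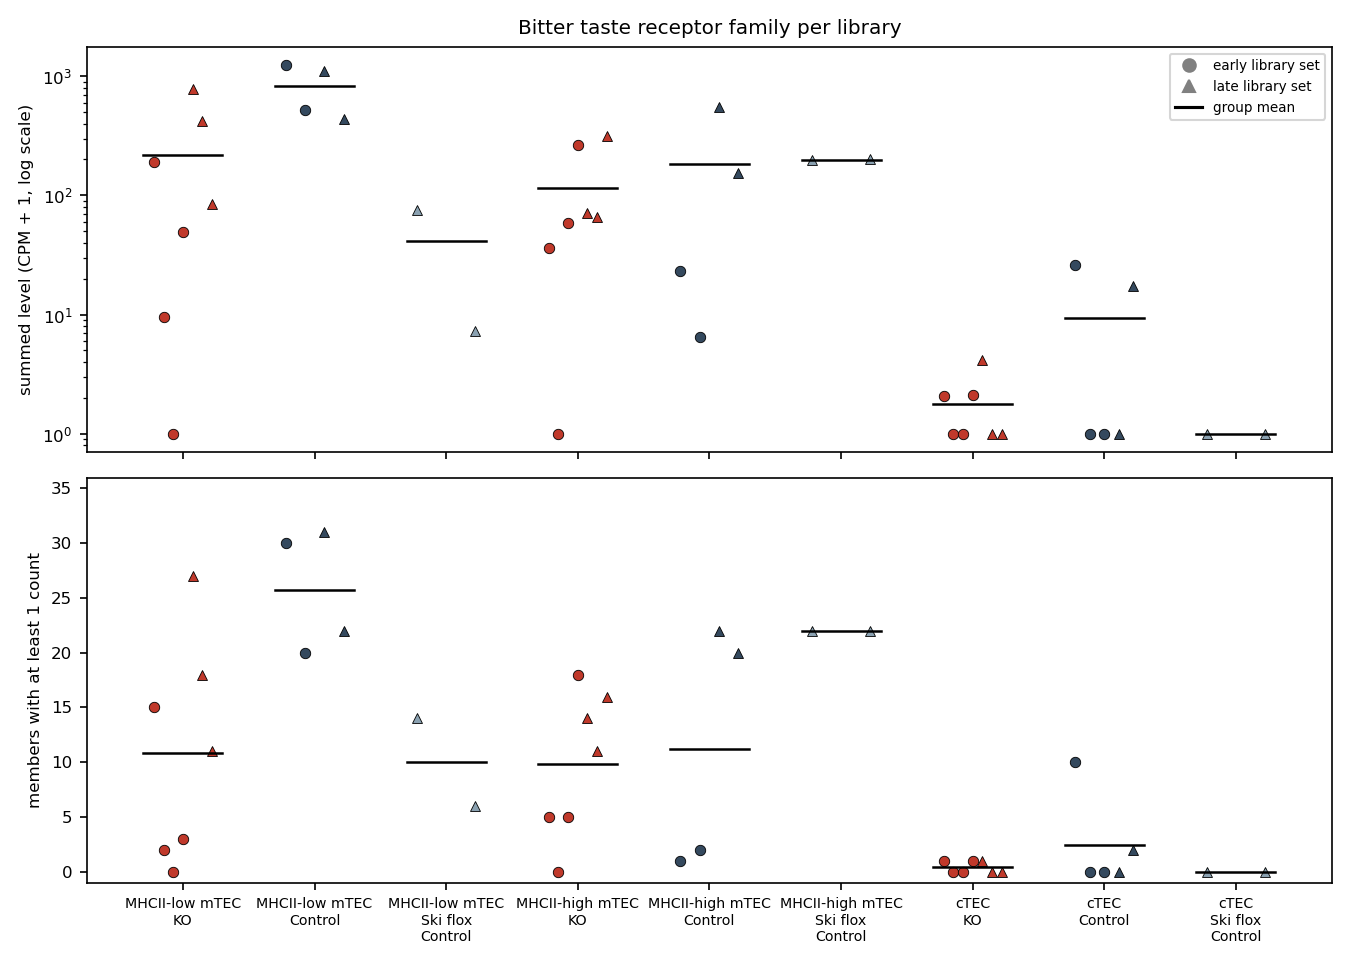
Summed CPM of the 35 members plus 1, on a log axis (top), and number of members with at least 1 count (bottom), for each of the 40 libraries by subset and genotype; circles are early and triangles late libraries, and the bars are group means. In MHCII-low mTEC, KO averaged 10.9 and Control 25.8 members, and the Ski flox Control libraries had 14 and 6. In MHCII-high mTEC the late Control triangles (22 and 20) stand far above the early Control circles (1 and 2).

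Each member was then tested for a KO effect with edgeR's quasi-likelihood test on all 9 groups, with Benjamini-Hochberg adjustment over 23040 genes and a threshold of 0.05. The filter on low counts kept 29 members and left out Tas2r114, Tas2r122, Tas2r135, Tas2r139, Tas2r143 and Tas2r144. In MHCII-low mTEC, 0 of the 29 members tested differed between KO and Control, as did 0% of all genes tested. At an unadjusted p under 0.05 there were 3 members (Tas2r121, Tas2r130 and Tas2r140), against 7.11% of all genes. limma voom called 2 members (Tas2r120 and Tas2r121) and 0.0477% of all genes, and DESeq2 called 0 members. The estimated fold was negative for all 29 members tested, with a median of −2.07 on the log2 scale, while 48.0% of all genes had a positive one and their median was 0.00. Within the early set the median was −5.13, with 0 of 25 members tested positive, and within the late set it was −0.85, with 5 of 29 positive. Members tended to be found in the same libraries (2, 0 and 3 members in KO replicates 2 to 4 and 27 in replicate 5). So these signs, and those counted below, are not independent observations.

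Tas2r121 (ENSMUSG00000071150, chr6:132700090-132701007, minus strand) had the smallest p in this comparison. It was at 0 in all 7 KO libraries of MHCII-low mTEC, against 38.6, 16.7, 3.35 and 8.09 CPM in the Control libraries and 0 in both Ski flox Control libraries. KO and Control did not overlap, and the mean was at least 194-fold lower in KO (at least 109-fold without Control replicate 1). The edgeR adjusted p was 0.639, while that of limma voom was 3.6e-07. With both Ski flox Control libraries also at 0, an absence of reads was not particular to KO. Tas2r121 had 348 reads in 7 libraries, so its values rest on few libraries.

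Tas2r105, the most abundant member, was at 7.70, 0, 0, 0, 63.4, 126 and 13.3 CPM in KO libraries of MHCII-low mTEC, against 242, 204, 197 and 56.1 CPM in Control and 21.3 and 1.61 CPM in Ski flox Control libraries. In 5 of 7 KO libraries it lay below every Control library. Its log2 fold in edgeR was −2.54 ± 1.55 (SE, adjusted p = 0.846), which did not pass. Tas2r108 was at 37.3, 0, 0, 21.9, 117, 22.6 and 27.6 CPM in KO, against 94.3, 47.9, 141 and 48.5 CPM in Control libraries, and was at 0 in both Ski flox Control libraries. Here 6 of 7 KO libraries lay below every Control library, with a log2 fold of −1.36 ± 1.65 (SE, edgeR adjusted p = 1).

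The other abundant members were likewise at 0 in 3 to 5 of the 7 KO libraries, while KO replicate 5 reached the Control range. Tas2r118 was found in KO replicates 5 and 6 only, at 72.8 and 76.4 CPM, against 127, 36.8, 62.2 and 50.4 CPM in Control libraries. Tas2r138 ranged from 0 to 51.0 CPM in KO (median 17.4) and was at 95.8, 13.1, 128 and 38.6 CPM in Control libraries. Tas2r115 ranged from 0 to 61.1 CPM in KO (median 0.308) and was at 110, 16.1, 43.0 and 57.4 CPM in Control libraries.

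For Tas2r102, 6 of 7 KO libraries lay below every Control library, with 0 to 4.40 CPM, and KO replicate 5 had 57.4 CPM. Its Control libraries had 80.1, 31.0, 87.3 and 17.0 CPM. Tas2r109 ranged from 0 to 43.3 CPM in KO (median 2.44), with 33.4, 8.82, 20.6 and 25.1 CPM in Control libraries, and is one of the members whose reads could be split with a near copy. Tas2r137 ranged from 0 to 43.6 CPM in KO (median 0) and was at 32.7, 47.0, 38.0 and 0 CPM in Control libraries, so that its groups overlap in full. The edgeR adjusted p was 1 for each of these 6 members.

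Tas2r120, the other member that limma voom called, was at 0 in 6 of 7 KO libraries of MHCII-low mTEC and at 25.0 CPM in KO replicate 5, above every Control library. The Control libraries had 13.5, 11.3, 19.4 and 11.0 CPM. Its log2 fold in edgeR was −1.94 ± 2.20 (SE, adjusted p = 1).

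In MHCII-high mTEC, 0 of the 29 members tested differed between KO and Control in edgeR, as did 0% of all genes, and DESeq2 and limma voom also called 0. There were 2 members (Tas2r103 and Tas2r121) at an unadjusted p under 0.05, against 6.88% of all genes. The estimated fold was positive for 7 members, and the median was −0.52 on the log2 scale (−0.04 over all genes). With the library set as a term in the model, 16 were positive and the median was 0.08, so no direction can be given. Tas2r121 had the smallest p, with 0 in all 7 KO libraries, against 0, 0, 13.9 and 1.56 CPM in Control and 0 and 1.79 CPM in Ski flox Control libraries. Its mean was at least 41.6-fold lower in KO (edgeR adjusted p = 0.661), but at least 5.60-fold without Control replicate 4.

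Tas2r105 in MHCII-high mTEC was at 17.1, 0, 9.62, 97.7, 11.5, 15.5 and 180 CPM in KO, against 0, 4.68, 169 and 32.0 CPM in Control and 62.5 and 70.0 CPM in Ski flox Control libraries. The means, 47.3 ± 67.1 in KO and 51.4 ± 79.5 in Control (SD, n = 7 and 4), were nearly equal, with a log2 fold of −0.12 ± 1.57 (SE, edgeR adjusted p = 1). Tas2r108 ranged from 0 to 24.7 CPM in KO and was at 22.2, 0, 61.7 and 34.9 CPM in Control libraries. Tas2r113 was found in 5 of 7 KO and 1 of 4 Control libraries of this subset. It was at 0, 0, 4.28, 15.4, 2.21, 2.55 and 2.72 CPM in KO, against 0, 0, 0 and 1.17 CPM in Control libraries, with a log2 fold of 3.59 ± 2.27 (SE, edgeR adjusted p = 0.951). This comparison of Tas2r113 was chosen after its values were seen.

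In cTEC, 0 of the 29 members tested differed in edgeR between KO and Control, as did 0% of all genes. At an unadjusted p under 0.05 there were 7 members, against 10.6% of all genes. DESeq2 called 4 members lower in KO (Tas2r102, Tas2r118, Tas2r126 and Tas2r138) and 2.26% of all genes, and limma voom called 0 members. All 4 were at 0 in all 7 KO libraries and had reads in Control replicate 1 of cTEC alone. The smallest p was that of Tas2r108, at 0 in 7 KO libraries, at 8.85 CPM in Control replicate 5 and at 0 in the other 4 Control libraries. Its mean was at least 20.4-fold lower in KO (edgeR adjusted p = 0.329), and without that single library there was no read in either group. Control replicate 1, which had 10 members, also had 59.5 CPM of Trpm5, 40.1 CPM of Gnat3 and 272 CPM over 6 tuft cell markers, the highest sum among the cTEC Control libraries, where the lowest was 0. Its part in the result was not tested. Control replicate 5, with 16.5 CPM of bitter receptors, had 0 CPM of Gnat3.

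**Figure D3:**
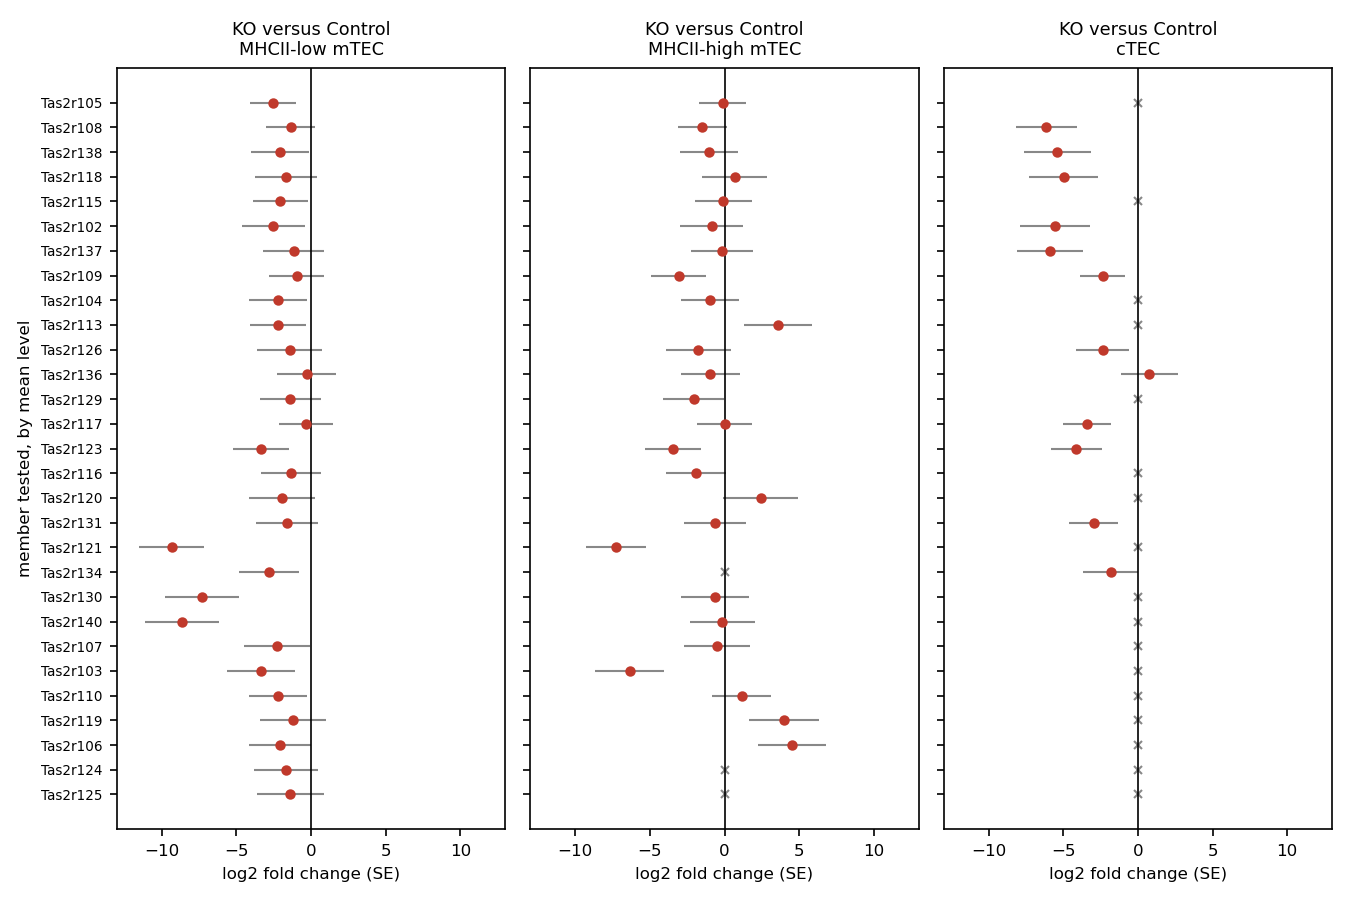
Log2 fold change of KO over Control with its standard error (edgeR) for the 29 members tested, in MHCII-low mTEC, MHCII-high mTEC and cTEC; crosses at 0 mark members with no count in either group, and points with a group at 0 are fitted values rather than bounds. In MHCII-low mTEC all 29 points lie below 0, with a median of −2.07, and none passed the test. Within the late set alone the median was −0.85 and 5 were above 0. Members share libraries, so the points are not independent.

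The Ski flox Control libraries gave another reference, all from the late set. In MHCII-low mTEC, 0 of the 29 members tested differed between KO and Ski flox Control in edgeR (0% of all genes), and 1 (Tas2r108) had an unadjusted p under 0.05, against 6.12% of all genes. DESeq2 called 3 members and 4.33% of all genes, and limma voom 0 members. Tas2r108 averaged 32.4 ± 39.9 CPM in KO (SD, n = 7) against 0 in both Ski flox Control libraries, a mean at least 96.5-fold higher (edgeR adjusted p = 0.686). The estimated fold was positive for 25 members, with a median of 3.39, against 59.5% of all genes and a median of 0.40. So the KO libraries of MHCII-low mTEC had a lower mean family level than Control and a higher one than Ski flox Control. The 2 comparisons share the KO libraries. Those Ski flox Control libraries also had the lowest epithelial marker sums of the subset (462 and 795 CPM). The part of this in the difference was not tested.

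In MHCII-high mTEC, 0 members differed from Ski flox Control in edgeR (0% of all genes) or in the other tests, with 2 (Tas2r103 and Tas2r121) at an unadjusted p under 0.05, against 3.15% of all genes. The estimated fold was positive for 4 members, with a median of −0.84, against 50.5% of all genes and a median of 0.01. With the library set as a term, 15 were positive and the median was 0.01, so no direction can be given. In cTEC, 0 members differed in any of the 3 tests (0% of all genes in edgeR), and 0 had an unadjusted p under 0.05, against 4.93% of all genes. Whether the KO effect differed between subsets was tested as an interaction. In edgeR 0 members and 0% of all genes passed in each of the 3 pairs of subsets. At an unadjusted p under 0.05 there were 0 members for MHCII-low mTEC against cTEC (7.38% of all genes), 1 for MHCII-high mTEC against cTEC (7.26%) and 3 for MHCII-high against MHCII-low mTEC (6.17%). DESeq2 called 3 members (1.62% of all genes), 3 (1.58%) and 0 in these pairs, and limma voom 1 (0.0174%), 0 and 0.

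The difference between medullary and cortical cells was the one that members passed. Members at 0 in cTEC passed the filter on low counts mainly through mTEC libraries, where they are high. All genes tested include genes with reads in both, so the shares beside the counts are not like for like. Epcam was also called higher in both medullary subsets than in cTEC, among Control and among KO libraries (edgeR). Among Control libraries, 1 of the 29 members tested was higher in MHCII-low mTEC than in cTEC, against 0.703% of all genes called higher (0.773% in either direction). This was Tas2r105, with 175 ± 81.4 CPM in MHCII-low mTEC (SD, n = 4) and 0 in all 5 cTEC Control libraries, a mean at least 1732-fold higher (edgeR adjusted p = 0.0299). The call was lost without MHCII-low Control replicate 1 and without any 1 of cTEC Control replicates 2, 3, 4 and 5. The count was 20 by limma voom (4.51% of all genes) and 8 by DESeq2 (6.6%), and 26 members had an unadjusted edgeR p under 0.05, against 17.9% of all genes.

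Tas2r105 was also the 1 member of 29 higher in MHCII-high mTEC than in cTEC among Control libraries, against 1.07% of all genes called higher (1.11% in either direction). It averaged 51.4 ± 79.5 CPM in MHCII-high mTEC (SD, n = 4) and 0 in cTEC, at least 509-fold higher (edgeR adjusted p = 0.0444). Without MHCII-high Control replicate 4, its highest library, the bound was 121-fold and the call was lost. It was also lost without MHCII-high Control replicate 3 or 5 and without any 1 of the 5 cTEC Control libraries. DESeq2 called 5 members (7.43% of all genes), limma voom 3 (8.48%), and 12 had an unadjusted edgeR p under 0.05, against 21.2% of all genes.

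Among KO libraries, with 7 a group, 14 of the 29 members tested were higher in MHCII-low mTEC than in cTEC, against 5.19% of all genes called higher (5.68% in either direction). They were Tas2r102, Tas2r104, Tas2r105, Tas2r108, Tas2r109, Tas2r113, Tas2r115, Tas2r116, Tas2r117, Tas2r118, Tas2r123, Tas2r129, Tas2r137 and Tas2r138. All 14 were at 0 in every KO library of cTEC. With only these groups in the fit, the filter on low counts left no member to test. Tas2r108 had the highest bound, at least 372-fold higher (edgeR adjusted p = 0.0103), and Tas2r105 was at least 346-fold higher (adjusted p = 0.0115). The lowest bound was 31.9-fold. DESeq2 called 16 members (10.1% of all genes) and limma voom 3 (4.5%), and 25 had an unadjusted edgeR p under 0.05, against 26.1% of all genes.

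These 14 bounds rested on few libraries, and leaving out 1 library moved each by over 1.5 times. Without KO replicate 5 of MHCII-low mTEC, the bound of Tas2r108 was 210-fold, that of Tas2r102 14.8-fold and that of Tas2r129 7.09-fold. Without KO replicate 6, that of Tas2r105 was 162-fold, that of Tas2r118 140-fold and that of Tas2r115 63.3-fold. The number of members called was 9 without KO replicate 1 and 6 without KO replicate 5 of MHCII-low mTEC, and 13 without replicates 3 and 4. Without cTEC KO replicates 1 to 7, each in turn, it was 8, 7, 5, 4, 8, 5 and 5. Within the late set alone 3 members passed, and within the early set 0.

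Between MHCII-high mTEC and cTEC among KO libraries, 12 of the 29 members tested were higher in MHCII-high mTEC, against 12.9% of all genes called higher (14.7% in either direction). They were Tas2r102, Tas2r104, Tas2r105, Tas2r108, Tas2r109, Tas2r113, Tas2r115, Tas2r117, Tas2r118, Tas2r131, Tas2r137 and Tas2r138, with bounds of at least 14.6-fold to at least 545-fold. The highest was that of Tas2r105 (edgeR adjusted p = 0.00545), which was 290-fold without KO replicate 7 of MHCII-high mTEC. Here too all 12 were at 0 in every KO library of cTEC. With only these groups in the fit, the filter left no member to test. Tas2r108 was at least 122-fold higher (adjusted p = 0.0130). DESeq2 called 13 members (15% of all genes) and limma voom 4 (14%), and 22 had an unadjusted edgeR p under 0.05, against 32.6% of all genes. In 9 of the 12, leaving out 1 library moved the bound by over 1.5 times. The number called was 6, 6, 6, 5, 7, 6 and 5 without cTEC KO replicates 1 to 7, each in turn, and 3 within the late set and 0 within the early set. These comparisons share cTEC libraries with the MHCII-low ones.

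Between the medullary subsets, 0 of the 29 members tested differed in edgeR. In Control libraries 0% of all genes passed between MHCII-high and MHCII-low mTEC, and in KO libraries 0.0174%. At an unadjusted p under 0.05 there were 6 members in Control (7.47% of all genes) and 7 in KO libraries (17.5%). limma voom called 2 members in Control libraries (0.343% of all genes) and 0 in KO libraries, and DESeq2 called 0 in both. The estimated fold was negative for all 29 members in Control libraries, with a median of −2.63 on the log2 scale against 0.04 over all genes. For Tas2r105 the means were 51.4 ± 79.5 CPM in MHCII-high and 175 ± 81.4 CPM in MHCII-low Control libraries (SD, n = 4 each). In KO libraries they were 47.3 ± 67.1 CPM in MHCII-high and 30.1 ± 48.0 CPM in MHCII-low mTEC (n = 7 each).

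Which member led varied from library to library. In MHCII-low Control libraries Tas2r105 led in replicates 1, 3 and 4 with 19.6%, 39.1% and 17.8% of the family level, and Tas2r115 led in replicate 5 with 13.2%. In KO libraries of that subset Tas2r108 led in replicates 1, 5 and 7 with at most 32.9% of the family level, and Tas2r105 led in replicate 6 with 29.9%. Tas2r138 led in replicate 4 with 46.4%, where 3 members had reads, and Tas2r134 in replicate 2 with 53.9%, where 2 members had reads.

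Among chemoreceptor families, a larger share of the bitter receptors had a read in an average mTEC library. In MHCII-low mTEC, 31.0% of the 35 Tas2r members had a read per library in KO on average and 73.6% in Control libraries. For the 1106 olfactory receptor genes these shares were 4.59% in KO and 8.07% in Control libraries, and for the 319 vomeronasal receptor genes 3.45% in KO and 7.21% in Control libraries. In cTEC, 1.22% of Tas2r members had a read in KO and 6.86% in Control libraries. There the share of olfactory receptors was 1.58% in KO and 1.95% in Control libraries, so the bitter receptors were not above the olfactory receptors in KO libraries of cTEC. Over all 40 libraries 1 Tas2r gene, 475 olfactory and 161 vomeronasal receptor genes were never found. These shares are descriptions and were not tested.

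Transcripts of the signalling chain were measured in the same libraries. Gnat3, which encodes the gustducin alpha subunit, was at 975, 0, 152, 288, 1295, 1229 and 201 CPM in KO replicates 1 to 7 of MHCII-low mTEC, against 2286, 145, 2560 and 1689 CPM in Control replicates 1, 3, 4 and 5 and 126 and 46.0 CPM in Ski flox Control libraries. The 4 KO libraries with the least Gnat3 (replicates 2, 3, 4 and 7) are also the 4 with the lowest summed bitter receptor level. KO replicate 2 had 8.51 CPM of receptors with both Gnat3 and Trpm5 at 0. Its log2 fold between KO and Control was −1.50 ± 1.43 (SE, edgeR adjusted p = 1). Trpm5, the cation channel at the end of the chain, ranged from 0 to 964 CPM in KO (median 255) and from 293 to 577 CPM in Control libraries, with a log2 fold of −0.52 ± 1.51 (adjusted p = 1).

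Of the 14 genes of taste signalling downstream of the receptors, 13 were tested. Of these, 0 differed between KO and Control in any subset, as did 0% of all genes (edgeR). Their median log2 fold was −0.55 in MHCII-low mTEC and −0.31 in MHCII-high mTEC, beside 0.00 and −0.04 over all genes. Between subsets, 6 of the 13 were higher in MHCII-low mTEC than in cTEC among KO libraries, against 5.19% of all genes, namely Gnat3, the gustducin partners Gnb3 and Gng13, the regulator Rgs21, and the channels Trpm4 and Trpm5. Gnat3 differed by 6.86 on the log2 scale (edgeR adjusted p = 0.0130). In Control libraries 1 was higher, against 0.703% of all genes. This was Gng13, by 5.41 (edgeR adjusted p = 0.0150). Between MHCII-high mTEC and cTEC, 5 were higher among KO libraries (the same genes but Trpm5), against 12.9% of all genes, and 0 among Control libraries, against 1.07%. Gnat3 and Trpm5 were at 0 in most cTEC KO libraries, while all genes tested include genes with reads in both. The shares beside these counts are therefore not like for like. Of the 3 sweet and umami receptors, 2 were tested, and Tas1r1 passed in 1 comparison, higher in MHCII-high mTEC than in cTEC among KO libraries (adjusted p = 0.0445).

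Genes of tuft cell identity were measured beside the receptors. Of 18 tested, 0 differed between KO and Control in any subset, as did 0% of all genes (edgeR). There was 1 positive estimate in MHCII-low mTEC (median log2 fold −0.33), 1 in MHCII-high mTEC (−1.15) and 6 in cTEC (−0.83). Pou2f3 averaged 92.2 ± 66.7 CPM in KO and 118 ± 63.8 CPM in Control libraries of MHCII-low mTEC (SD, n = 7 and 4), which is within the spread. Among KO libraries, 10 of 18 were higher in MHCII-low mTEC than in cTEC (Alox5, Avil, Chat, Gfi1b, Hpgds, Il25, Pou2f3, Ptgs1, Sh2d6 and Spib), against 5.19% of all genes. In MHCII-high mTEC 4 were (Gfi1b, Il25, Pou2f3 and Spib), against 12.9% of all genes. Among Control libraries the count was 0 for both medullary subsets. Il25 was at 0 in every cTEC KO library, and here too the shares are not like for like. The sum over 6 tuft cell markers ranged from 194 to 4853 CPM in KO and from 927 to 4696 CPM in Control libraries of MHCII-low mTEC, and lay below the Control range in both Ski flox Control libraries.

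The family level was also set against Gnat3 in each library. In MHCII-low mTEC there were 19.5, 0, 16.8, 60.4, 34.3 and 41.6 CPM of bitter receptors per 100 CPM of Gnat3 in KO replicates 1, 3, 4, 5, 6 and 7, against 53.8, 360, 43.3 and 25.8 in Control libraries. The groups overlap. Control replicate 3 stands out with much family expression and only 145 CPM of Gnat3. In MHCII-high mTEC the ratio lay between 50.8 and 181 in the 6 KO libraries with Gnat3, against 35.4, 3.23, 40.4 and 29.6 in Control and 24.3 and 57.5 in Ski flox Control libraries. In MHCII-high mTEC every KO ratio was above every Control ratio, but the Ski flox Control ratio of 57.5 lay within the KO range. The comparison was chosen after the values were seen and carries no test.

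**Figure D4:**
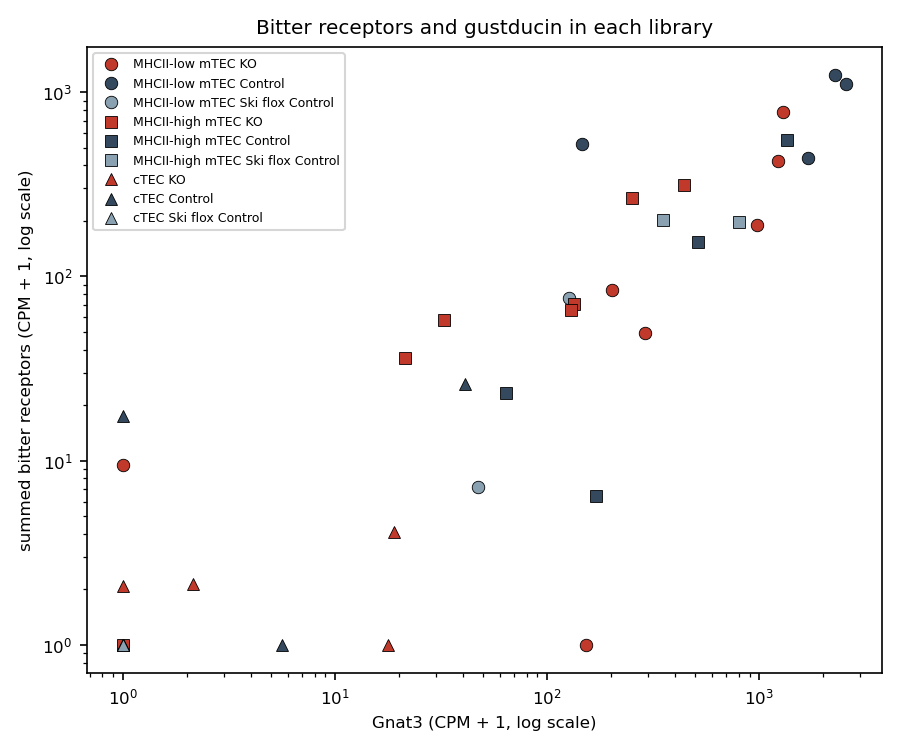
Summed CPM of the bitter receptor family plus 1 against CPM of Gnat3 plus 1 in the 40 libraries, both on log axes, by subset and genotype. Most cTEC libraries sit at or near the origin, and among mTEC libraries the highest ratio, 360 per 100, is that of MHCII-low Control replicate 3 with 521 CPM of bitter receptors and 145 CPM of Gnat3.

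Markers of other cells were measured beside the members. Between KO and Control, edgeR called 0 of them in any subset, as it did 0% of all genes. In MHCII-low mTEC, 5 of 8 thymocyte markers had a positive estimate (median log2 fold 0.05), as did 6 of 7 myeloid and dendritic markers (0.85), 4 of 4 B cell markers (1.85) and 0 of 5 endothelial markers (−2.50). The summed B cell markers ranged from 27.0 to 940.5 CPM in KO and from 79.8 to 325 CPM in Control libraries. The summed endothelial markers ranged from 15.9 to 129 CPM in KO and from 95.3 to 761 CPM in Control libraries, where the highest was replicate 3. The summed myeloid and dendritic markers ranged from 648 to 4838 CPM in KO and from 424 to 3092 CPM in Control libraries, and the thymocyte markers from 60.1 to 2561 CPM in KO and from 79.3 to 2074 CPM in Control libraries. All 4 pairs of ranges overlap. On average 16490 genes had a read in KO and 18760 in Control libraries of MHCII-low mTEC, 16740 and 19340 in MHCII-high mTEC, and 13550 and 15710 in cTEC. The part of these differences in the member values was not tested.

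The 7 members with an octamer in their window ranged over the whole scale of expression. Tas2r108, Tas2r118 and Tas2r137 were among the 8 most abundant members, Tas2r126 ranked 11 and Tas2r107 ranked 23, while Tas2r135 and Tas2r144 ranked 30 and 32 of 35 by mean CPM. Tas2r144 had reads in 2 libraries, at 6.70 CPM in 1 KO library of MHCII-low mTEC and 0.759 CPM in 1 Control library of MHCII-high mTEC. Tas2r108, Tas2r118 and Tas2r137 were among the members higher in both medullary subsets than in cTEC among KO libraries, together with Tas2r102, Tas2r104, Tas2r105, Tas2r109, Tas2r113, Tas2r115, Tas2r117 and Tas2r138, of which all but Tas2r117, for which no window was available, had no octamer in their windows.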

How the data were processed

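The authors deposited a table of raw read counts per Ensembl gene for 42 libraries. Per the labels' protocols, cDNA was made from 200 sorted cells with SMART-Seq v4 and libraries with Nextera XT, which mark no strand and carry no molecular identifiers. The build was GRCm38 and the tools named were FastQC 0.11.3, SAMtools 1.2, Picard 1.134 and HTSeq 0.4.1, per the submitters' processing notes. An aligner, a strand setting or an annotation release is not given in the sources used here. That table had 0 columns outside the sample list and 0 identical columns. Of its identifiers, 53274 matched GENCODE M21 (GRCm38), which gave symbols and positions, and 191 did not.

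Libraries under 100000 counts were left out. CPM were computed with TMM factors. Of 37695 genes with any count, edgeR's filterByExpr (minimum count 10, minimum total 15) kept 23040. All 40 libraries entered a single quasi-likelihood fit with 1 coefficient for each of the 9 groups (biological coefficient of variation 1.4), using edgeR 4.0.16 in R 4.3.3. The code was tested on simulated data. Standard errors were derived from the F statistic. A member with no count in a group got a bound, from 3 counts over that group's summed library sizes. limma 3.58.1 (voom) and DESeq2 1.42.0 (Wald test) were alternatives, as were RLE factors, other filters, other choices of libraries, the library set as a term, and leaving out each library. Python 3.11.15, NumPy 2.4.6, pandas 2.3.3 and matplotlib 3.10.9 were used for the rest. A member was found in a library at 1 count, with 5 counts and thinning to 3000000 counts as alternatives.

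Named with values were the 8 members of highest mean CPM, those past the threshold in any comparison, those of smallest p between KO and Control, and Tas2r121. Members, gene lists and this rule were chosen with earlier results of these data known. The boundary between the early and late sets was set after correlations between libraries had been seen. Replicate numbers only tell libraries apart.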

Additional observations from a re-analysis of the deposited data

Results flagged for a closer look

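Of 83 group values looked at, 18 had a single library beyond Dixon's 95% limit, on log2(CPM + 1) or on numbers of members. In 11 of the 18 the library was the only one of its group with a read, which passes this limit whatever its level. The rate of about 1 in 20 groups that chance gives applies to continuous values, and not to groups with so many zeros, so the values below are descriptions. In KO libraries of MHCII-low mTEC, replicate 5 was high for Tas2r102 (57.4 CPM, others 0 to 4.40 CPM) and for Tas2r129 (45.6 CPM, others 0 to 3.70 CPM). In Control libraries of MHCII-low mTEC, replicate 5 was low for Tas2r105 (56.1 CPM, others 197 to 242 CPM) and for Tas2r137 (0 CPM, others 32.7 to 47.0 CPM), and replicate 3 was low for Tas2r113 (0 CPM, others 27.1 to 55.0 CPM).

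In MHCII-high mTEC, KO replicate 2 had a summed family level of 0 CPM, against 35.1 to 312 CPM in the other 6 KO libraries. Among Control libraries of that subset, replicate 5 had 1.17 CPM of Tas2r113 and replicate 4 had 18.0 CPM of Tas2r116, with 0 CPM in the others.

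In cTEC, Control replicate 1 had 10 members, against 0 to 2 in the other 4 Control libraries. It held 5.98 CPM of Tas2r102, 0.528 CPM of Tas2r109, 1.23 CPM of Tas2r117, 3.87 CPM of Tas2r118, 2.11 CPM of Tas2r123, 0.880 CPM of Tas2r131 and 5.28 CPM of Tas2r138. Each of these 7 members was at 0 in the other Control libraries of cTEC. Control replicate 5 of cTEC held 8.85 CPM of Tas2r108 and 7.61 CPM of Tas2r137, and these were at 0 in the other 4. The values in cTEC come from these 2 libraries and are not independent of each other.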

How the results depend on the processing

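No result changed its direction among those that passed a test. Single-member results were followed only for calls of the main fit, the smallest p between KO and Control, and Tas2r121. Over these results and the alternatives, 508 values kept their side of the threshold, 220 lost a call and 1 gained one. Few of these results could gain a call, since most were called in the main fit. Calls that an alternative made for other members enter only the counts that follow. By DESeq2 the members called were 4 for KO against Control in cTEC, 3 for KO against Ski flox Control in MHCII-low mTEC, 8 for MHCII-low mTEC and 5 for MHCII-high mTEC against cTEC in Control libraries, and 3 in each interaction with cTEC. By limma voom they were 2 for KO against Control in MHCII-low mTEC. Between subsets voom called 20 for MHCII-low mTEC and 3 for MHCII-high mTEC against cTEC in Control libraries, 3 and 4 in KO libraries, 2 between the medullary subsets in Control libraries, and 1 in the interaction of MHCII-low mTEC with cTEC. With only the groups compared in the fit, MHCII-low mTEC against cTEC in Control libraries gave 5 of 14 members tested and MHCII-high mTEC against cTEC in Control libraries gave 0 of 1. There the filter left 0 members to test for either medullary subset against cTEC in KO libraries, and for KO against Control or Ski flox Control in cTEC, so these gave no value. Within the early set, an alternative added after seeing the data, all 4 comparisons of mTEC with cTEC gave 0. Within the late set, added likewise, MHCII-low mTEC gave 2 in Control and 3 in KO libraries, and MHCII-high mTEC gave 0 in Control and 3 in KO libraries. The summed level in MHCII-high mTEC, KO over Control, was 2.69 (log2) within the early set. The cause of these differences was not tested. Leaving out 1 library at a time, KO minus Control in members found ranged from −17.6 to −13.1 in MHCII-low mTEC, from −4.81 to 2.19 in MHCII-high mTEC and from −2.57 to −0.0714 in cTEC. The log2 ratio of the summed level ranged from −2.72 to −1.65 in MHCII-low mTEC, from −1.15 to 0.93 in MHCII-high mTEC and from −4.49 to −2.43 in cTEC. The members called ranged from 0 to 1 for each medullary subset against cTEC in Control libraries, from 4 to 15 for MHCII-low mTEC and from 5 to 12 for MHCII-high mTEC in KO libraries. Leaving out KO replicates 3 and 4 of MHCII-low mTEC was also added after seeing the data. No paired analysis was possible because the labels give no replicate numbers, and those used here follow the sample order and pair nothing. With 200 cells a library and levels near 0 in many, a member without reads was not detectable at this depth.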
